A study of Mus musculus with 16 samples.

Results

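The response to a high-fat diet (HFD) was described in the gonadal white adipose tissue (gWAT) of mice whose adipocytes lack Mboat7 (Mboat7 ASKO mice), in the 4 mice fed HFD and the 4 mice fed chow, which are 8 of the 16 mice of the series. The mice were chosen by their labels, that is by genotype and diet. All were males on a C57BL/6J background that carry floxed Mboat7 alleles, and for 20 weeks they ate either a standard chow or a HFD in which fat supplied 60% of the energy, with a 4 h fast before the tissue was taken. In Mboat7 ASKO mice the adiponectin promoter also drives a Cre recombinase, so that the gene is removed from adipocytes, while macrophages, vessels, progenitors and the other cells of the fat pad keep it. The other 8 mice are floxed controls without Cre (4 on each diet), used here for comparison and, in the same fit, for the estimate of the spread. The ages are given only as matched, and each library was made from the fat of 1 mouse.

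MBOAT7 is an acyltransferase that puts arachidonic acid onto lysophosphatidylinositol, and so makes the main arachidonate-containing form of phosphatidylinositol. When fat pads expand in obesity, adipocytes enlarge, some of them die, and macrophages gather around the remnants and take up their lipid. Such macrophages are known for genes of lipid binding and of the lysosome, the compartment in which engulfed material is degraded. Adipocytes of obese mice are known to lose transcripts of several secreted factors and of lipid synthesis while leptin rises.

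The values are FPKM, that is fragments scaled to exon length and to the mapped fragments of the library, so that levels are per transcript length. Differences are those of log2(FPKM + 1), where adding 1 makes the changes of weakly expressed genes look smaller than they are. In the Mboat7 ASKO mice, FPKM sums ran from 606407 to 854719. The files give no read counts, but the steps of low values correspond to about 338000 to 404000 fragments per mouse on HFD and 229000 to 339000 on chow, so that 1 fragment on a transcript of 1 kb is worth 2.47 to 4.36 FPKM. Between 11528 and 11803 genes were above 0 per mouse on HFD and between 10700 and 10994 on chow, a difference that goes with diet as the estimated depth does, and whose part in the results below was not tested. The 10 highest rows took 54.2% of the FPKM sum in HFD mouse 3 and between 38.7% and 39.2% in the other HFD mice, mostly through AY036118, annotated as a long non-coding RNA, which held 31.4% of the sum in that mouse. Each mouse is 1 sample, so that the p-values measure the spread between mice.

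Mboat7 itself (ENSMUSG00000035596.14, chromosome 7 of GRCm38, 3677789 to 3693523, minus strand) was near the floor of detection on both diets. Its values, in the order of mice 0 to 3 as in all that follows, were 1.14, 0, 2.6 and 0 FPKM on HFD and 0, 1.39, 0 and 2.89 FPKM on chow. The groups overlapped completely, with a difference of -0.07 (two-sided exact permutation test, p = 0.8286), and its exons overlap those of Tsen34. In the control mice Mboat7 was listed at 0, 0, 2.15 and 1.6 FPKM on HFD and at 2.42, 4.33, 0.9 and 4.99 FPKM on chow, so a loss from adipocytes could not be read from the HFD libraries at this depth. The labelled tissue was present in every library by its defining genes, since the sum over 24 adipocyte genes was between 8025 and 9021 FPKM on HFD and between 12256 and 30123 FPKM on chow. Much of this sum was 1 gene, Fabp4, with 5052 to 5709 FPKM on HFD and 6522 to 22038 FPKM on chow. Adipoq, the adiponectin gene, was between 318 and 462 FPKM on HFD and between 679 and 1379 FPKM on chow. The epididymal genes looked up as signs of a neighbouring organ were not tested, as the 1 gene of 16 in the table (Adam7) was listed at 0 in all 8 mice.

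In gWAT of Mboat7 ASKO mice, many macrophage and lysosomal genes rose on HFD, among them Gpnmb, Mmp12 and Ctsk, and adipocyte factors such as Cfd, Retn and Adipoq fell. Genes were tested if 4 or more of the 8 mice reached 1 FPKM. Of these 10482 genes, 519 (4.95%) passed, with a limma adjusted p below 0.05 and a log2 fold change of more than 0.5 in size. In what follows, "rose" and "fell" are used only for genes that passed. The genes that rose numbered 316 (3.01%) and those that fell 203 (1.94%), and the median log2 fold change of all genes tested was 0.03. These shares stand beside every count of list members below, and a short list can hold a call at these rates. For 491 of the 519 genes, every HFD mouse lay on one side of every chow mouse, which the choice of genes by p-value favours. For genes listed at 0 in every mouse of 1 diet, the filter also required it. Among all genes tested, 650 (6.2%) were wholly higher on HFD and 558 (5.32%) wholly lower. Exons of another gene overlap those of 36.1% of the genes that rose, 61.6% of those that fell and 45.6% of all genes tested, and overlapping genes are uncertain here because it is not stated whether strand entered the counting. The upper quartile of FPKM was between 14.97 and 15.74 on HFD and between 17.26 and 18.56 on chow. When each mouse was scaled to its upper quartile, the median of all genes moved from 0.03 to 0.2 and the split became 403 genes higher and 116 lower, and with the 10 highest rows left out and the rest rescaled it was 402 and 130. Only Mboat7 ASKO mice were left out singly for this response, here and below. The number of genes was lower whichever of these 8 mice was left out. It was lowest without HFD mouse 0 (320 genes) and HFD mouse 1 (344 genes) and highest without chow mouse 1 (446 genes). Such fits also hold fewer mice, and the part of this was not tested. When the control mice were left out of the fit, 358 genes passed, 234 higher and 124 lower.

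The largest rise among the genes named by size was that of Gpnmb (ENSMUSG00000029816.10, chromosome 6, 49036546 to 49070929), a glycoprotein of lysosomes and of lipid-laden macrophages. It was at 112, 132, 137 and 152 FPKM on HFD and at 0, 1.54, 0 and 0 FPKM on chow (log2 fold change 6.73 with a standard error of 0.46, limma adjusted p = 4.085e-07). The groups were far apart, and the transcript was close to undetected in the fat of chow-fed mice. Mmp12, the macrophage elastase (chromosome 9, 7344381 to 7369499), was at 118, 202, 154 and 205 FPKM on HFD and at 0, 0, 2.47 and 2.67 FPKM on chow (log2 fold change 6.46, adjusted p = 1.283e-05). Its exons overlap those of Mmp1b. Atp6v0d2, a subunit of the proton pump that acidifies lysosomes in macrophages and osteoclasts, was at 96, 114, 100.1 and 103 FPKM on HFD and listed at 0 in 3 of 4 chow mice, with 3.16 FPKM in the fourth (log2 fold change 6.19, adjusted p = 1.063e-06). Its 4 HFD values lay within a narrow range, with a standard deviation of 7.85 FPKM. Ubd, a ubiquitin-like protein induced by interferon and tumour necrosis factor, was at 104, 119, 118 and 68.2 FPKM on HFD and at 0, 0, 12.7 and 0 FPKM on chow (log2 fold change 5.71, adjusted p = 0.0003974). The groups did not overlap, and chow mouse 2 alone had a signal among the chow mice. Itgax, which encodes the CD11c integrin chain of inflammatory macrophages and dendritic cells (chromosome 7, 128129547 to 128150657), was at 39.2, 37.8, 34.6 and 47.4 FPKM on HFD, and on chow it was above 0 in only 1 mouse, at 0.74 FPKM (log2 fold change 5.14, adjusted p = 1.14e-06).

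The other genes named for the largest rises were also mostly genes of myeloid cells. Trem2, a lipid receptor of macrophages, ranged from 52.6 to 88.3 FPKM on HFD and from 0 to 3.79 FPKM on chow. Cd68, a macrophage lysosomal membrane protein, was at 78.6, 63.3, 52.9 and 98.7 FPKM on HFD against 3.85, 0, 0 and 13.2 FPKM on chow (log2 fold change 4.65, adjusted p = 0.0004598). Ctsk, a collagen-degrading cathepsin, was at 336, 383, 254 and 179 FPKM on HFD and between 9.04 and 14 FPKM on chow (log2 fold change 4.47, adjusted p = 0.001537). Rgs18, a regulator of G protein signalling of blood cells, reached 22.3 to 37.5 FPKM on HFD and was above 0 in 1 chow mouse. Fcer1g, the common signalling chain of Fc receptors, was listed at 0 in all chow mice and at 27.7, 17.6, 22.6 and 55.5 FPKM on HFD. The adhesion molecule Cadm1 was likewise listed at 0 on chow, with 15.4 to 37.5 FPKM on HFD, and so was Cd300c2, a myeloid receptor, with 15.1 to 27.9 FPKM on HFD. Among all genes that passed, 55 were listed at 0 in every chow mouse and 8 in every HFD mouse, and for these no fold change is given. Such a gene was tested only if all 4 mice on the other diet reached 1 FPKM, so that its lack of overlap was fixed by the filter. Their share among all genes tested was not counted. The estimated depth was also mostly lower on chow.

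**Figure D1:**
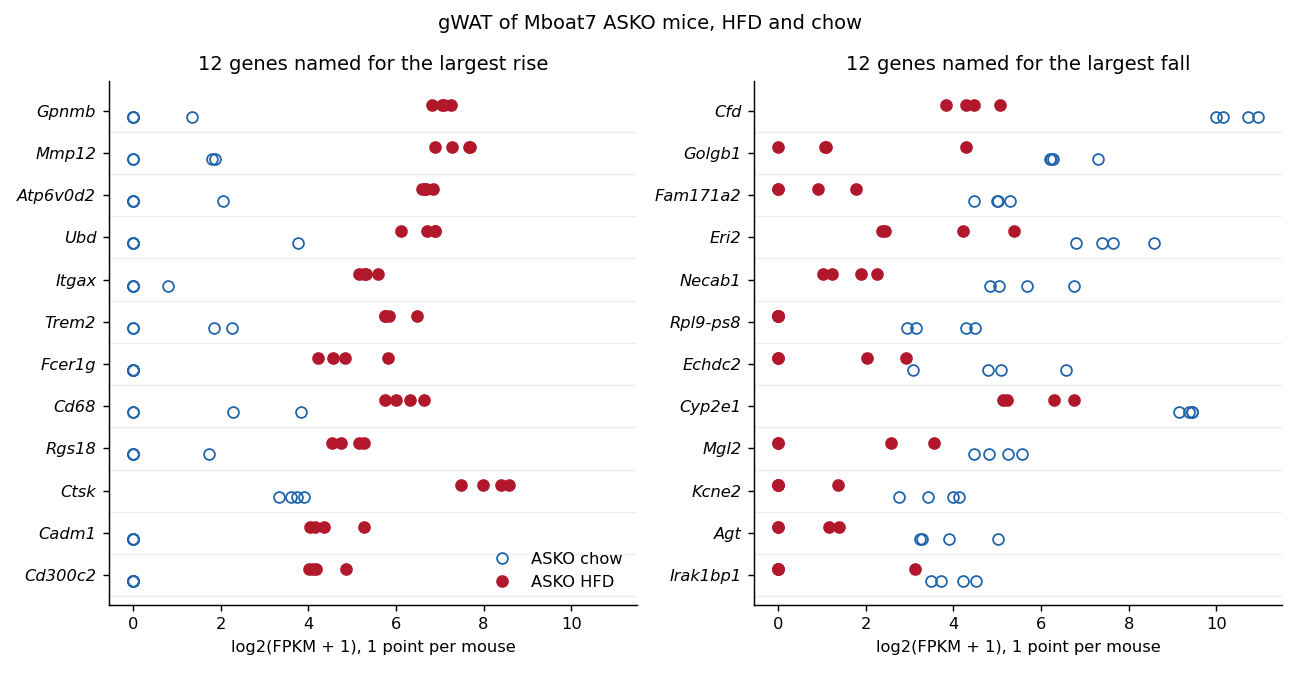
Levels as log2(FPKM + 1), 1 point per mouse, of the 12 genes named for the largest rise (left) and the 12 named for the largest fall (right) in gWAT of Mboat7 ASKO mice on HFD (filled) and chow (open). The HFD and chow points of each gene do not overlap, which the choice of these genes required.

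The largest fall among the genes named by size was that of Cfd, which encodes adipsin, a complement protease secreted by adipocytes (ENSMUSG00000061780.5, chromosome 10, 79890853 to 79892655). It was at 21.3, 32.6, 18.6 and 13.2 FPKM on HFD and at 1022, 1129, 1680 and 1989 FPKM on chow. The means, 21.4 ± 8.16 and 1455 ± 458 FPKM (SD, n = 4), differed 68-fold (log2 fold change -6.04 with a standard error of 0.36, limma adjusted p = 9.598e-08). Cyp2e1, a cytochrome P450 of small-molecule oxidation, was at 34, 106, 36.1 and 78.1 FPKM on HFD and at 697, 665, 697 and 569 FPKM on chow (log2 fold change -3.51, adjusted p = 0.0003091). No HFD mouse came near the chow values. Mgl2, a lectin of resident macrophages and dendritic cells, went the other way from most myeloid genes, with 0, 4.97, 10.8 and 0 FPKM on HFD and 21, 27, 46.6 and 37 FPKM on chow (log2 fold change -3.49, adjusted p = 0.01219). Agt, the precursor of angiotensins, which adipocytes release, was at most 1.63 FPKM on HFD and at 8.67, 8.46, 14 and 31.3 FPKM on chow (log2 fold change -3.22, adjusted p = 0.01297). Of 11 tested genes of the acute phase and complement, 1 passed, Cfd, and their median log2 fold change was 0.09. Kcne2, a potassium channel subunit, was above 0 in 1 HFD mouse and between 5.78 and 16.6 FPKM on chow.

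Several of the remaining falls need care. Golgb1, a Golgi tether, Eri2, an exonuclease, Necab1, a calcium-binding protein, and Fam171a2 all share exons with other annotated genes. For Fam171a2 the overlapping gene is Grn, which rose (log2 fold change 2.33, adjusted p = 0.004491) while Fam171a2 fell (log2 fold change -4.27, adjusted p = 0.0002283). Rpl9-ps8, a ribosomal protein pseudogene whose reads may be shared with its parent gene, was listed at 0 in all HFD mice and at 18.5, 6.63, 7.89 and 21.6 FPKM on chow. Echdc2, a mitochondrial protein of the enoyl-CoA hydratase family, was at 6.62, 0, 0 and 3.1 FPKM on HFD and at 93.9, 26.5, 7.41 and 32.9 FPKM on chow, and its adjusted p of 0.04471 rose to between 0.0647 and 0.131 when any of 6 single mice was left out. Irak1bp1, a binding partner of an interleukin receptor kinase, was above 0 in 1 HFD mouse, at 7.73 FPKM, and between 10.2 and 21.8 FPKM on chow, and without HFD mouse 1 its adjusted p was 0.0526.

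Macrophage genes rose as a group. Of 27 tested macrophage markers 15 rose and none fell, with a median log2 fold change of 1.77 beside 0.03 for all genes. Their mean log2(FPKM + 1) per mouse was 4.82, 4.57, 4.52 and 4.71 on HFD and 2.52, 2.87, 2.63 and 2.67 on chow, and their summed level was between 1616 and 2271 FPKM on HFD and between 308 and 428 FPKM on chow. The groups were thus separate by a wide margin in every mouse. In tissue libraries, more macrophages and more RNA of these genes per macrophage cannot be told apart. Adgre1, which encodes the F4/80 antigen, was at 45, 57.1, 46 and 46.1 FPKM on HFD and at 6.55, 11.7, 2.83 and 0.98 FPKM on chow (log2 fold change 3.25, limma adjusted p = 0.006368). Mpeg1, a pore-forming protein of phagocytes, was at 119, 128, 155 and 120.2 FPKM on HFD and at 10.1, 10.3, 11.7 and 4.96 FPKM on chow (log2 fold change 3.73, adjusted p = 1.14e-06). Ctss, a cathepsin that processes antigen, was at 330.5, 477, 355 and 328 FPKM on HFD and at 6.78, 27.9, 45.7 and 12.3 FPKM on chow (log2 fold change 4.25, adjusted p = 0.0001047). The HFD and chow mice did not overlap for any of these 3 genes.

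The chains of complement component C1q, which tissue macrophages make, rose to different extents. C1qc went from 28.5 ± 16.5 to 186 ± 36.2 FPKM (SD, n = 4), C1qb from 14.9 ± 10.9 to 107 ± 17.5 FPKM and C1qa from 35.4 ± 12.7 to 119 ± 33.7 FPKM. Lyz2, the lysozyme of myeloid cells, rose 4.9-fold in its mean, from 96 ± 10.5 to 470.2 ± 121 FPKM. Ptprc, the CD45 antigen of all leukocytes, was between 18.5 and 26.9 FPKM on HFD and between 2.13 and 3.48 FPKM on chow, and Cybb, the oxidase subunit of phagocytes, between 17.3 and 21 FPKM against 0.55 to 2.26 FPKM. Not every marker followed. Csf1r, the receptor of macrophage colony-stimulating factor, was at 41.3, 29.2, 35.9 and 43.9 FPKM on HFD and at 55.9, 41.4, 62.6 and 44 FPKM on chow (log2 fold change -0.43, adjusted p = 0.4665), and its exons overlap those of Hmgxb3. Cd163, a scavenger receptor, was wholly higher on HFD (log2 fold change 1.38) but did not pass (adjusted p = 0.05285). Fcgr3, an Fc receptor, and Itgam, the CD11b chain, rose in the full set of mice, but the Fcgr3 values of the diets overlapped, and Fcgr3 lost its call without any of 4 single mice (adjusted p up to 0.078) and Itgam without HFD mouse 1 (adjusted p = 0.056). Adgre1 and Tyrobp, an adaptor of myeloid receptors, kept their calls without any single mouse but not with a pseudocount of 0.1 (Adgre1, adjusted p = 0.0657) and with the control mice left out of the fit (Tyrobp, adjusted p = 0.0702).

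Genes of lipid-associated macrophages, the cells that take up lipid around dying adipocytes, had the highest median of the lists, 2.51. Of 23 tested members 15 rose and none fell. Besides Gpnmb, Mmp12, Atp6v0d2, Itgax and Trem2, Lgals3, which encodes galectin-3, was at 833, 1065, 578 and 943 FPKM on HFD and at 15.4, 64.7, 49.5 and 72.6 FPKM on chow (log2 fold change 4.22, limma adjusted p = 3.794e-05). Lipa, the acid lipase that frees cholesterol and fatty acids in lysosomes, was at 63.9, 63.1, 57.4 and 64.6 FPKM on HFD and at 5.97, 1.88, 5.49 and 5.11 FPKM on chow (log2 fold change 3.57, adjusted p = 1.78e-05). Clec7a, the beta-glucan receptor dectin-1, which the annotation lists as a polymorphic pseudogene, was at 32.6, 32, 62.2 and 46.1 FPKM on HFD and at 1.99, 6.57, 3.51 and 2.13 FPKM on chow (log2 fold change 3.33, adjusted p = 0.0002569). The HFD mice were all far above the chow mice for these genes. Plin2, a lipid droplet coat protein of foam cells and other lipid-storing cells, rose 5.84-fold in its mean, from 70.8 ± 28.6 to 414 ± 98.8 FPKM. Spp1, the secreted phosphoprotein osteopontin, was between 17.4 and 23.4 FPKM on HFD and above 0 in 1 chow mouse, and Dcstamp, a fusion protein of giant cells, was listed at 0 in all chow mice and at 8.45, 1.24, 2.78 and 1.4 FPKM on HFD. The call of Dcstamp was lost when the control mice were left out of the fit (adjusted p = 0.0754).

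The other 8 tested members of this list did not pass, among them genes that adipocytes also express. Apoe, an apolipoprotein, was at 605, 1167, 551 and 981 FPKM on HFD and at 889, 1389, 1761 and 1520.3 FPKM on chow (log2 fold change -0.78, limma adjusted p = 0.2615), and Lpl, lipoprotein lipase, was wholly lower on HFD (log2 fold change -0.92, adjusted p = 0.1992). Cd36, a fatty acid transporter, was wholly higher, with 475 to 511 FPKM against 238 to 399 FPKM, but did not pass (log2 fold change 0.58, adjusted p = 0.2806). The tetraspanin Cd9 was between 18.4 and 28.8 FPKM on HFD and between 0 and 16.5 FPKM on chow (adjusted p = 0.07289). Capg, an actin-capping protein, rose, but not with a pseudocount of 0.1 (adjusted p = 0.137).

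Resident macrophage markers did not move as 1 group. Of 15 tested, 3 rose and 1 fell, beside 3.01% and 1.94% of all genes tested, and the median was 0.34. Sepp1, which encodes the selenium carrier selenoprotein P, was at 306, 374, 292 and 326 FPKM on HFD and at 160, 130.5, 180.1 and 147 FPKM on chow (log2 fold change 1.07, limma adjusted p = 0.005396). Folr2, a folate receptor, rose from 13.9 ± 9.11 to 74.3 ± 38.4 FPKM (adjusted p = 0.009773), and Mrc1, the mannose receptor, from 19.1 ± 3.31 to 46 ± 7.51 FPKM (adjusted p = 0.0268), although Mrc1 lost its call without any of 6 single mice (adjusted p up to 0.0801). Exons of Sepp1 and Folr2 overlap those of other genes. Mgl2, described above, was the member that fell. Lyve1, a hyaluronan receptor of perivascular macrophages and lymphatic vessels, was wholly lower on HFD, at 0, 1.76, 0 and 1.03 FPKM against 3.04, 6.29, 3.74 and 4.23 FPKM, and Timd4, a receptor for phosphatidylserine, was listed at 0 in all HFD mice and at 0, 1.28, 1.57 and 2.62 FPKM on chow. Lyve1 did not pass (adjusted p = 0.183), and Timd4 was too low to be tested.

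**Figure D2:**
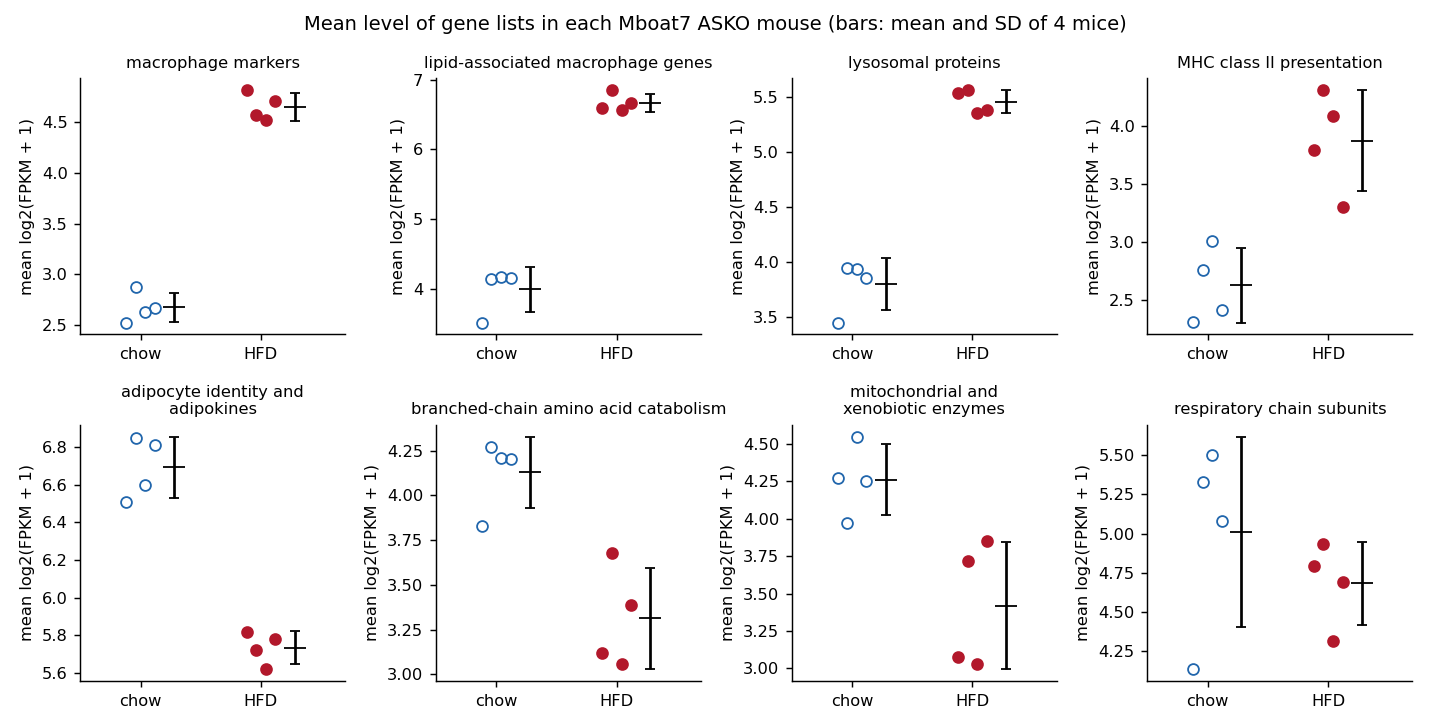
Mean log2(FPKM + 1) over the members of 8 gene lists in each Mboat7 ASKO mouse on chow (open) and HFD (filled), with the mean and SD of 4 mice beside the points; the vertical axes do not start at 0. The HFD and chow mice are separate for every list shown except the respiratory chain, where chow mouse 0 was at 4.13 and the other chow mice at 5.08 to 5.5.

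Lysosomal proteins rose broadly, in the same mice as the macrophage markers, whose part in this was not tested. Of 39 tested members 19 rose and none fell, the median was 1.5, and 36 had a positive log2 fold change. Together with the macrophage markers and the lipid-associated macrophage genes, with which it shares members, the list covers 80 tested genes, of which 42 rose. They make up 13.3% of all genes that rose. The cathepsins, which degrade proteins in lysosomes, had high levels. Ctsd was at 763, 837, 574 and 884 FPKM on HFD and at 153, 240, 209 and 234 FPKM on chow (log2 fold change 1.87, limma adjusted p = 0.001114). Ctsa was at 1236, 1047, 970 and 1173 FPKM on HFD and at 395, 344, 707 and 377 FPKM on chow (log2 fold change 1.33, adjusted p = 0.005794), with chow mouse 2 nearer to the HFD mice than the others. Ctsz and Ctsl showed the same, with 175 and 228 FPKM in chow mouse 2 against at most 90.6 and 107 FPKM in the other chow mice, and Ctsl was at 228 FPKM in HFD mouse 3, level with chow mouse 2. Lgmn, an asparagine-specific protease, rose from 14.6 ± 7.63 to 91.4 ± 18.5 FPKM. Psap, the precursor of the saposins that help to break down sphingolipids, was at 296, 388, 303 and 325 FPKM on HFD and at 80.8, 153, 108 and 101 FPKM on chow (log2 fold change 1.59, adjusted p = 0.0006778). Of the glycosidases, Gla, alpha-galactosidase, was between 3.74 and 6.2 FPKM on HFD and above 0 in 1 chow mouse, and Gusb, beta-glucuronidase, rose from 13.9 ± 9.27 to 55 ± 16.3 FPKM, a call that was lost when the control mice were left out of the fit (adjusted p = 0.056).

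Of 7 tested subunits and accessory proteins of the vacuolar proton pump, 3 rose, namely Atp6v0d2, Atp6v1b2 and Atp6v1a. Atp6v1b2 went from 19.2 ± 9.69 to 83.2 ± 20.6 FPKM (log2 fold change 2.15, limma adjusted p = 0.001031) and Atp6v1a from 9.05 ± 1.2 to 31.3 ± 3.95 FPKM (log2 fold change 1.68, adjusted p = 0.005526), in both cases with no overlap between the diets. The log2 fold changes of those that did not pass were 1.56 for Atp6v0d1 (adjusted p = 0.3545), 0.52 for Atp6v1h (adjusted p = 0.6214), 0.46 for Atp6ap1 (adjusted p = 0.4136) and -0.21 for Atp6v1c1 (adjusted p = 0.88). Exons of 8 of the 19 lysosomal genes that rose overlap those of other genes, among them Ctsa with Neurl2 and Pltp, and Ctsb with Fdft1. Hexa, a lysosomal glycosidase subunit, rose in the full set of mice (adjusted p = 0.03582) but lost its call without any of 7 single mice (adjusted p up to 0.11).

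Promoter windows of 4 of the genes that rose are given to show where 3 short motifs stand in them. The motifs are TCACGTGA, the core of the element read by TFEB, TFE3 and MITF, the factors known for lysosomal genes, GAGGAAGT, a core of the myeloid factor PU.1, and TGAGTCA, the AP-1 site. Both strands were searched, in windows of 250 bases before to 50 bases after the RefSeq transcription starts of GRCm38.p6. For a gene with several starts, the window with the most matches is given, and other windows of that gene may differ. None of the 3 motifs contains another. The windows read 5′ to 3′ along the gene, with the motif matches in capitals.
Ctsd (chr7:142387778-142388077, minus strand): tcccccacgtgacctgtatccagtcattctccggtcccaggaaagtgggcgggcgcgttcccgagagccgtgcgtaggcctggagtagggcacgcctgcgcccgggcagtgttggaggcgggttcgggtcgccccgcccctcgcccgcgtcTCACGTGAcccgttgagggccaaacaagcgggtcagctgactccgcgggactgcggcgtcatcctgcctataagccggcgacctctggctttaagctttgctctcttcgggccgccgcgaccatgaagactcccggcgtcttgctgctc
Ctsa (chr2:164833523-164833822, plus strand): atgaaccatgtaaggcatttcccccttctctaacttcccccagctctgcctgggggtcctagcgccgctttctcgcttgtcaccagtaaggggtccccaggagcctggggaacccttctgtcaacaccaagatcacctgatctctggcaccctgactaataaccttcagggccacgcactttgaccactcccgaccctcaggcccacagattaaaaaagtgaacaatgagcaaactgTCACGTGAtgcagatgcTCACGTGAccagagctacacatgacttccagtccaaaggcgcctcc
Mmp12 (chr9:7344147-7344446, plus strand): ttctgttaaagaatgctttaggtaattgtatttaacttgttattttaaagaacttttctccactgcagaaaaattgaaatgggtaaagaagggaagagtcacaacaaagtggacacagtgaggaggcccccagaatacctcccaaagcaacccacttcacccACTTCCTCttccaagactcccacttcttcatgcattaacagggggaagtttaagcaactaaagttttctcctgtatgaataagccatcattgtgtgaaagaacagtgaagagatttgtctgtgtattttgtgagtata
Itgax (chr7:128129300-128129599, plus strand): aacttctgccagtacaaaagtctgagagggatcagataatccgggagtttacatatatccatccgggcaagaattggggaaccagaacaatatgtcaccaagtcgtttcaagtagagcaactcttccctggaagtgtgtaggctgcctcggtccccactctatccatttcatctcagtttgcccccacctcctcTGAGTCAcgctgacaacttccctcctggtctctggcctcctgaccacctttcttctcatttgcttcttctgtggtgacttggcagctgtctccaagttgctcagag

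In the Ctsd window the match to TCACGTGA begins 99 bases before the start, and in that of Ctsa there is a match 13 bases before the start and a second within the first exon, from base 5. Among 30 lysosomal genes with a promoter window, 6 (20%) held this motif in at least 1 window, namely Atp6v0d1, Atp6v1a, Ctsa, Ctsd, Gla and Mcoln1, against 2.3% of 7047 tested genes with a window and 1.12% of 27025 genes in the RefSeq table. Of these 6, Atp6v0d1 and Mcoln1 did not pass for diet (adjusted p = 0.3545 and 0.893). Over all genes that passed, the motif was in a window of 3.26% of the 215 that rose and 1.61% of the 124 that fell. A longer form of the motif, with 1 more base on each side, was in none of the 30, and the shorter CACGTG was in 36.7% of them against 11.9% of the tested genes. In Mmp12 the match to the PU.1 core lies on the other strand, so that the capitals show its reverse complement, and begins 88 bases before the start. That motif was in 9.77% of the 215 genes that rose and had a window, in 5.65% of the 124 that fell, and in 3.7% of the tested genes. The AP-1 site of Itgax begins 56 bases before the start, and the site was in 9.77% of the genes that rose, 3.23% of those that fell and 4.92% of the tested genes. These are counts of letters in windows and not of bound sites, and the motif forms and the windows shown were chosen with the expression values known.

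Antigen presentation and chemokine genes rose in part. All 7 tested genes of MHC class II presentation had positive log2 fold changes, with a median of 1.64, and 3 rose. H2-Aa was at 85.1, 164, 68.8 and 131 FPKM on HFD and at 12.4, 45.6, 25.3 and 25 FPKM on chow (log2 fold change 2.07, limma adjusted p = 0.005396), and H2-Eb1 went from 42.9 ± 17.1 to 139 ± 51.9 FPKM (adjusted p = 0.005526). H2-Ab1 passed by little (adjusted p = 0.04671) and lost its call without any of 6 single mice (adjusted p up to 0.15). Of 14 tested chemokines and receptors 3 rose, beside 3.01% of all genes tested. Ccl9, a chemokine of myeloid cells, was at 31.5, 21.7, 21 and 16.7 FPKM on HFD and at 1.54, 5.39, 1.2 and 7.31 FPKM on chow (log2 fold change 2.48, adjusted p = 0.01429), with an adjusted p of 0.0547 without HFD mouse 0. Cxcl14 rose with overlap between the diets and lost its call without any of 6 single mice (adjusted p up to 0.0963). Ccl2, the main monocyte attractant, was above 0 in 1 HFD mouse and 2 chow mice and was not tested.

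Other immune cells left few traces. Of 25 genes of T, B and NK cells only 6 could be tested, none passed, and their summed level was between 59.6 and 168 FPKM on HFD and between 115 and 153 FPKM on chow. The neutrophil genes S100a8 and S100a9 and the T cell gene Cd3d were listed at 0 in all 8 mice. Of 4 tested genes of neutrophils, mast cells and eosinophils, 1 rose, the mast cell tryptase Tpsb2, with overlapping groups (adjusted p = 0.04664, and up to 0.141 without single mice, the call being lost for 5 of 8). Among 16 interferon-induced genes Ubd alone rose, beside 3.01% of all genes tested, and the median was 0.38.

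Adipocyte genes changed in both directions, mostly downward. The macrophage markers rose in the same mice, and whether this had a part in the lower values of adipocyte genes was not tested. The share of adipocyte RNA in the libraries was not measured. Of 24 tested genes of adipocyte identity and adipokines, 7 fell and 1 rose, and the median was -0.84. Their mean log2(FPKM + 1) per mouse was 5.82, 5.72, 5.62 and 5.78 on HFD and 6.51, 6.85, 6.6 and 6.81 on chow. Adipoq, which encodes adiponectin and whose promoter drives the Cre, was at 462, 318, 395 and 415 FPKM on HFD and at 679, 1226, 961 and 1379 FPKM on chow (log2 fold change -1.38, limma adjusted p = 0.00373). Retn, the adipokine resistin, was at 41.9, 22.4, 30.2 and 21.5 FPKM on HFD and at 203, 316, 221 and 217 FPKM on chow (log2 fold change -3.03, adjusted p = 0.003296). Lep, which encodes leptin, went the other way, with 497, 539, 312 and 360 FPKM on HFD and 72.7, 209, 179 and 133 FPKM on chow (log2 fold change 1.59, adjusted p = 0.008654). The leptin values did not overlap, and in a two-sided exact permutation test p was 0.0286, the smallest that 4 mice against 4 allow.

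Car3, a carbonic anhydrase abundant in adipocytes, was at 670, 371, 598 and 571 FPKM on HFD and at 1733, 2433.5, 2514 and 2556 FPKM on chow (log2 fold change -2.08, limma adjusted p = 0.0002283). Pck1, the enzyme that makes phosphoenolpyruvate for glycerol synthesis in adipocytes, fell from 357 ± 145 to 59.2 ± 12.5 FPKM (log2 fold change -2.5, adjusted p = 0.0001047). Cebpa, a transcription factor of adipocyte differentiation, and Plin4, a droplet coat protein, fell by 1.13 and 1.41 on the log2 scale. Both share exons with other genes, and both calls were lost in fits without 1 mouse. The call of Cebpa was lost for 7 of 8 mice (adjusted p up to 0.109) and that of Plin4 for 3 (adjusted p up to 0.0901). Other defining genes did not pass. Fabp4, the fatty acid-binding protein of adipocytes, was at 5709, 5592, 5433 and 5052 FPKM on HFD and at 6522, 9235, 22038 and 7983 FPKM on chow, wholly lower but with 1 very high chow mouse (log2 fold change -0.9, adjusted p = 0.1762). Plin1 (adjusted p = 0.2396), Cidec (adjusted p = 0.1876) and Pparg (log2 fold change -0.09, adjusted p = 0.954) had overlapping groups. Slc2a4, the insulin-responsive glucose transporter, was at most 14.4 FPKM in any of the 8 mice (adjusted p = 0.657).

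Few genes of lipid metabolism passed. Of 18 tested genes of de novo lipogenesis 1 fell and none rose, with a median of -0.7. The gene was Thrsp, a lipogenic nuclear protein, at 30.9, 52.5, 26.1 and 25.3 FPKM on HFD and at 67.8, 314, 296 and 168 FPKM on chow (log2 fold change -2.45, limma adjusted p = 0.005922). Scd1, the stearoyl-CoA desaturase, was at 2815, 1728, 1741 and 1580.3 FPKM on HFD and at 4264, 5689, 2396 and 5294 FPKM on chow, with chow mouse 2 among the HFD values (log2 fold change -1.13, adjusted p = 0.06868). Fasn, fatty acid synthase, and Acaca, acetyl-CoA carboxylase, were wholly lower on HFD but did not pass (log2 fold change -1.23 and -1.38, adjusted p = 0.2781 and 0.1166). None of 11 genes of triglyceride synthesis and none of 21 of fatty acid oxidation passed, with medians of -0.57 and -0.06. Of all genes tested 4.95% passed, so that lists this short can hold no call.

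In the list of lipolysis and droplet coats, 2 of 16 genes fell and 1 rose, Plin2, beside 1.94% and 3.01% of all genes tested. Pnpla2, the adipose triglyceride lipase, was at 39.8, 19.5, 23.2 and 53.2 FPKM on HFD and at 86.3, 105, 73.9 and 113 FPKM on chow (log2 fold change -1.54, limma adjusted p = 0.02751), and lost its call without any of 4 single mice (adjusted p up to 0.0997). Lipe, hormone-sensitive lipase, was wholly lower, between 14.7 and 21.2 FPKM against 28.4 to 48.7 FPKM, but did not pass (adjusted p = 0.07902). Of 18 sterol genes 2 rose, beside 3.01% of all genes tested, and the median was 0.62. Fdft1, squalene synthase, was at 1970.8, 1823, 2016 and 1950.4 FPKM on HFD and at 394, 332, 483 and 370.3 FPKM on chow (log2 fold change 2.31, adjusted p = 8.765e-07), levels far above those of other sterol genes, and its exons overlap those of Ctsb, which also rose. The next step of the pathway, Sqle, was at 25.3 ± 8.35 FPKM on HFD and 16.8 ± 9.26 FPKM on chow (adjusted p = 0.5087). Insig1, a sensor that holds back sterol synthesis, rose from 35.1 ± 19.7 to 105 ± 27.5 FPKM (adjusted p = 0.03014), a call that was lost without any of 5 single mice (adjusted p up to 0.0982).

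Genes of branched-chain amino acid breakdown had the lowest median of the lists with at least 4 tested genes, -1.06, and 17 of 19 had negative log2 fold changes. Of these 19 genes, 3 fell, beside 1.94% of all genes tested. Dbt, a subunit of the dehydrogenase of branched-chain ketoacids, was at 0.85, 7.03, 5.65 and 6.05 FPKM on HFD and at 25.2, 16.7, 30.7 and 16.9 FPKM on chow (log2 fold change -2.14, limma adjusted p = 0.01342). Acadsb, a dehydrogenase of the isoleucine pathway, was at 8.4, 8.09, 7.62 and 8.23 FPKM on HFD and at 24.8, 19.4, 16.5 and 21.7 FPKM on chow (log2 fold change -1.24, adjusted p = 0.02214), and Pccb, a subunit of propionyl-CoA carboxylase, fell from 103 ± 26.3 to 42.8 ± 7.56 FPKM (adjusted p = 0.02266). The HFD values of Acadsb lay within 1 FPKM of each other. Acadsb and Pccb each lost their call without any of 6 single mice (adjusted p up to 0.0604 and 0.0724), and Dbt with only the Mboat7 ASKO mice in the fit (adjusted p = 0.0586). None of 39 respiratory chain subunits passed (median -0.31), and the chow mice differed among themselves, with a mean level of 4.13 in mouse 0 and of 5.08 to 5.5 in the others.

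Enzymes chiefly of xenobiotic metabolism (labelled mitochondrial and xenobiotic enzymes in the figures) fell in part, 4 of 21 tested genes, beside 1.94% of all genes tested. The median was -1.05, and the summed level was 401 to 621 FPKM on HFD against 1570 to 1860 FPKM on chow. After Cyp2e1, the clearest was Ces1d, a carboxylesterase that also hydrolyses triglyceride in adipocytes, at 39.4, 39.8, 30 and 50.9 FPKM on HFD and at 134, 179, 123 and 215 FPKM on chow (log2 fold change -1.99, limma adjusted p = 0.0004324). Gsta3, a glutathione transferase, and Sult1a1, a sulfotransferase, passed with all mice (adjusted p = 0.03076 and 0.04485) and lost their calls without any of 6 single mice each (adjusted p up to 0.104 and 0.144).

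**Figure D3:**
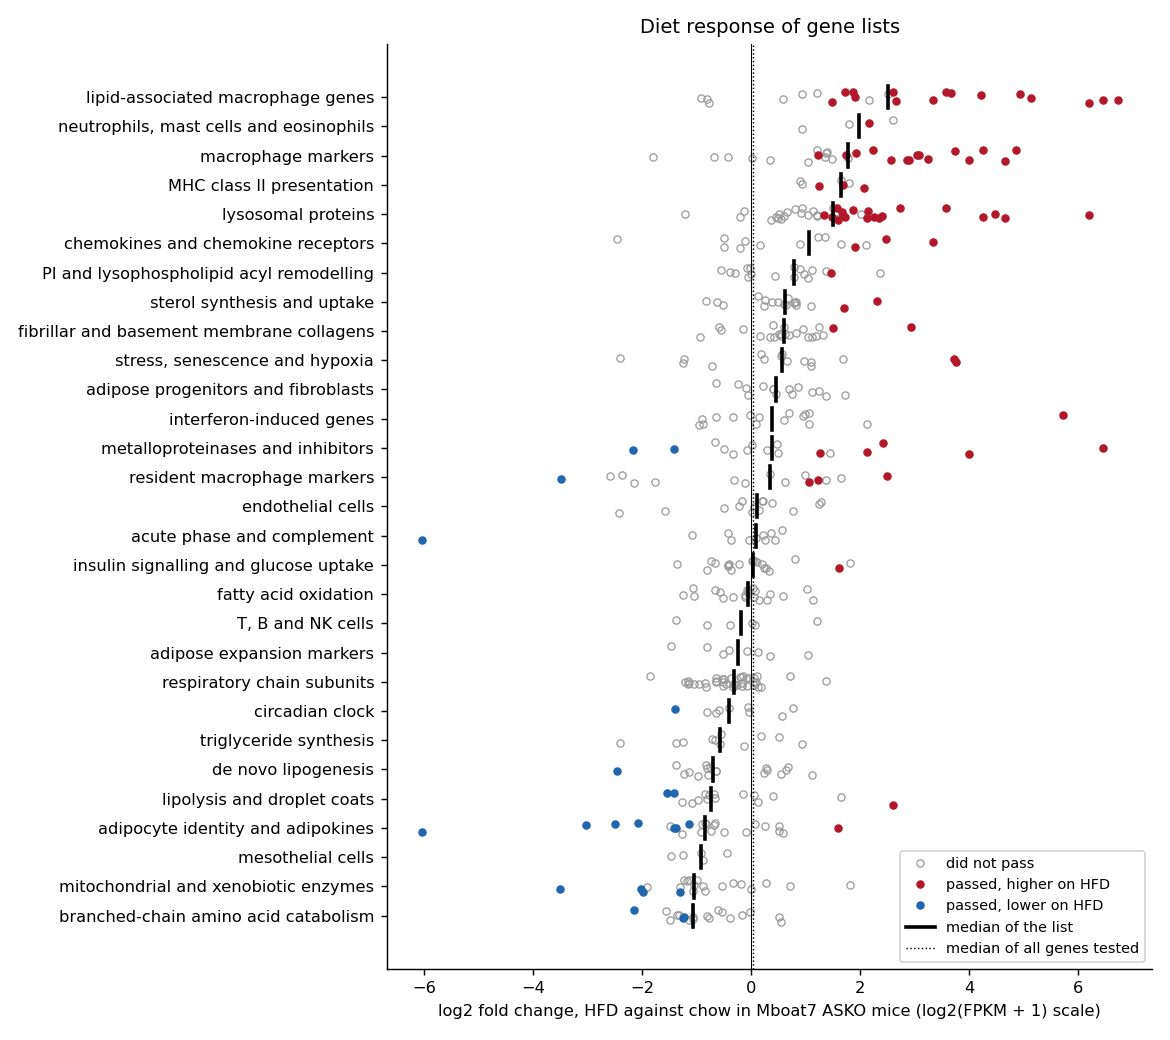
Log2 fold change (HFD against chow, Mboat7 ASKO mice) of each tested gene in the 29 lists with at least 4 tested genes, ordered by median, with genes that passed filled. Medians run from -1.06 for branched-chain amino acid catabolism to 2.51 for lipid-associated macrophage genes, beside 0.03 for all genes (dotted line).

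Of 23 collagens and other genes of the extracellular matrix 2 rose and none fell, where 3.01% of all genes tested rose. The median was 0.61, and 8 of the 23 were wholly higher on HFD, beside 6.2% of all genes tested. Lum, the keratan sulfate proteoglycan lumican, was at 215, 209, 162 and 189 FPKM on HFD and at 22, 37.4, 17.1 and 24.4 FPKM on chow (log2 fold change 2.94, limma adjusted p = 2.727e-05). Postn, periostin, rose from 9.16 ± 3.19 to 27.8 ± 9.27 FPKM (adjusted p = 0.02687), and its call was lost without any of 5 single mice (adjusted p up to 0.0962). Col3a1, a fibrillar collagen, was at 37.5, 47.4, 47.7 and 35.1 FPKM on HFD and at 22.6, 14.2, 17.1 and 12.3 FPKM on chow, wholly higher without passing (adjusted p = 0.07647).

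Proteases of the matrix and their inhibitors moved both ways, 5 up and 2 down of 16, beside 3.01% and 1.94% of all genes tested. Besides Mmp12, Mmp14, a membrane-bound collagenase, was at 3.32, 8.39, 10.3 and 8.29 FPKM on HFD and at 1.6, 0, 1.02 and 0 FPKM on chow (log2 fold change 2.42, limma adjusted p = 0.01366). Adam8, a metalloprotease of leukocytes, and Mmp3, stromelysin, were listed at 0 in all chow mice, with 11.4 to 18.6 FPKM and 1.4 to 6.37 FPKM on HFD. Mmp9, a gelatinase, was listed at 0 in all HFD mice and between 1.15 and 3.88 FPKM on chow, where 1 fragment on 1 kb was worth 2.95 to 4.36 FPKM. Its call was lost when the control mice were left out of the fit (adjusted p = 0.0886). Of the inhibitors, Timp2 rose from 24.8 ± 7.68 to 58.4 ± 5.2 FPKM (adjusted p = 0.01454, and 0.0506 without HFD mouse 1). Timp4 was at 8.02, 7.24, 9.76 and 10.6 FPKM on HFD and at 31.7, 81.1, 42.3 and 31.1 FPKM on chow (log2 fold change -2.16, adjusted p = 0.005052), and its exons overlap those of Syn2.

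Markers of the stroma and of vessels gave no calls. None of 15 tested progenitor and fibroblast genes, 14 endothelial genes and 5 mesothelial genes passed, with medians of 0.45, 0.1 and -0.91. With 4.95% of all genes tested passing, lists of this size can hold no call. The summed level of the endothelial list was between 74 and 159 FPKM on HFD and between 148 and 239 FPKM on chow, and that of the mesothelial list between 8 and 20.5 FPKM against 22.7 to 37.5 FPKM. Pecam1, an endothelial adhesion molecule, was at 12.6, 25.4, 20.2 and 24.8 FPKM on HFD and at 32.9, 16.7, 18.1 and 15.7 FPKM on chow, with full overlap. Ucp1, the uncoupling protein of brown fat, was above 0 in 1 of the 8 mice. Acta1, skeletal muscle actin, was above 0 in 1 HFD mouse (2.1 FPKM) and at 3.17 to 9.08 FPKM on chow (adjusted p = 0.1313), the 1 muscle gene that could be tested.

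Among genes of phosphatidylinositol and lysophospholipid remodelling, the pathway of the deleted enzyme, 1 of 17 rose and none fell, with a median of 0.78. Of all genes tested 3.01% rose, and a list of this size can hold 1 call at that rate. This gene was Pla2g15, a lysosomal phospholipase, at 12.4, 11.8, 6.06 and 9.5 FPKM on HFD and at 2.89, 2.54, 3.67 and 2.45 FPKM on chow (log2 fold change 1.46, limma adjusted p = 0.02783), and its call was lost without any of 6 single mice (adjusted p up to 0.0946). Pla2g4a, the cytosolic phospholipase that releases arachidonic acid, was at 0.87, 3, 6.58 and 2.46 FPKM on HFD and at 1.45, 0, 2.31 and 1.81 FPKM on chow (difference 0.78, two-sided exact permutation test, p = 0.2571). Lpcat3, the acyltransferase that puts polyunsaturated fatty acids onto lysophosphatidylcholine, was at 13.4, 11, 8.88 and 18.3 FPKM on HFD and at 13.6, 13.7, 5.43 and 24.5 FPKM on chow (difference -0.02, two-sided exact permutation test, p = 0.9429), and its exons overlap those of Emg1. Its direction turned with the scaling, to 0.18 with upper-quartile scaling.

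The remaining lists held at most 2 calls each, where 4.95% of all genes tested passed. Hmox1, the haem-degrading oxygenase, was listed at 0 in all chow mice and at 12.6, 13.1, 11.3 and 13.4 FPKM on HFD, and Atf3, a stress-induced transcription factor, was at 21.4, 18.9, 11.2 and 14.2 FPKM on HFD and above 0 in 1 chow mouse, at 1.75 FPKM (limma adjusted p = 0.0004965). These were the 2 of 15 stress genes that rose, beside 3.01% of all genes tested. Nr1d1, a repressor of the circadian clock, was at 10.7, 13.7, 13.9 and 14.4 FPKM on HFD and at 39.3, 34.1, 23.8 and 51.7 FPKM on chow (log2 fold change -1.39, adjusted p = 0.01894), the 1 call among 9 clock genes. It shares exons with Thra, and its call was lost without chow mouse 3 (adjusted p = 0.0665) and without HFD mouse 0 (adjusted p = 0.0649). Rac1, a small GTPase of actin and glucose uptake, rose from 162 ± 39.3 to 485 ± 29 FPKM (log2 fold change 1.61, adjusted p = 0.0003252) as the 1 call among 20 insulin signalling genes, and shares exons with Daglb. None of 8 adipose expansion markers passed.

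Most genes that passed had the same direction in the control mice, which share no animals with the Mboat7 ASKO groups but enter the same fit and its estimate of the spread. In controls 379 of the same 10482 genes (3.62%) passed, 236 higher (2.25%) and 143 lower (1.36%). These genes were filtered on the Mboat7 ASKO mice alone, so that genes expressed only in controls could not be called. With the filter over all 16 mice, 451 genes passed in Mboat7 ASKO mice and 383 in controls. Of the 519 genes that passed in Mboat7 ASKO mice, 483 (93.1%) had the same sign in controls, and 209 passed in the same direction, which is 40.3% of the Mboat7 ASKO list and 55.1% of the control list. Conversely, 365 of the 379 control genes (96.3%) had the same sign in Mboat7 ASKO mice. Signed by the direction in Mboat7 ASKO mice, the median log2 fold change of the 519 genes was 2.07 in these mice and 1.39 in controls. Signed by the direction in controls, that of the 379 genes was 2.23 in controls and 1.59 in Mboat7 ASKO mice. Genes of opposite direction thus count as negative in the other genotype. Each list had its larger values in the genotype used to choose it. Across all 10482 genes Pearson's r between both responses was 0.47, as a description over genes, which are not independent.

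No gene had a response to diet that differed between the genotypes past the limits. By limma's interaction term, 0 of 10482 genes passed, the lowest adjusted p was 0.338, and before adjustment 688 genes were below 0.05. With chow mouse 2 of the Mboat7 ASKO group left out, 1 gene passed. Among the genes of lowest p were Rpl9-ps8, Cdadc1, Gm14703 and Srpr. The exons of Cdadc1, a cytidine deaminase family member, and of Srpr, a subunit of the signal recognition particle receptor, overlap those of other genes.

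Among the named genes, Gpnmb had a log2 fold change of 6.73 in Mboat7 ASKO mice and 5.45 in controls (interaction adjusted p = 0.7654). For Cfd the values were -6.04 and -5.57 (adjusted p = 0.9036). Itgax was at 8.51, 26.3, 14 and 15.6 FPKM in control mice on HFD, all below the Mboat7 ASKO mice on HFD, and its log2 fold changes were 5.14 and 3.8, but the interaction did not pass (adjusted p = 0.7297). Cd68 likewise had 4.65 and 2.71 (adjusted p = 0.7604). Ctsa was the reverse, with 1.33 in Mboat7 ASKO mice and 2.51 in controls (adjusted p = 0.6165), and so was Capg, with 2.65 and 4.49 (adjusted p = 0.7302). Lep rose by 1.59 and 1.98 (adjusted p = 0.9176).

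By list, macrophage markers rose in 15 of 27 genes in Mboat7 ASKO mice and in 11 in controls, with medians of 1.77 and 1.93, lipid-associated macrophage genes in 15 and 14 of 23, with medians of 2.51 and 2.29, and lysosomal proteins in 19 and 12 of 39, with medians of 1.5 and 1.08. Adipocyte genes fell in 7 of 24 in Mboat7 ASKO mice and in 5 in controls. Genes of branched-chain amino acid breakdown fell in 3 and 6 of 19, and xenobiotic enzymes in 4 and 7 of 21. Within these 6 lists no interaction had an adjusted p under 0.616.

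**Figure D4:**
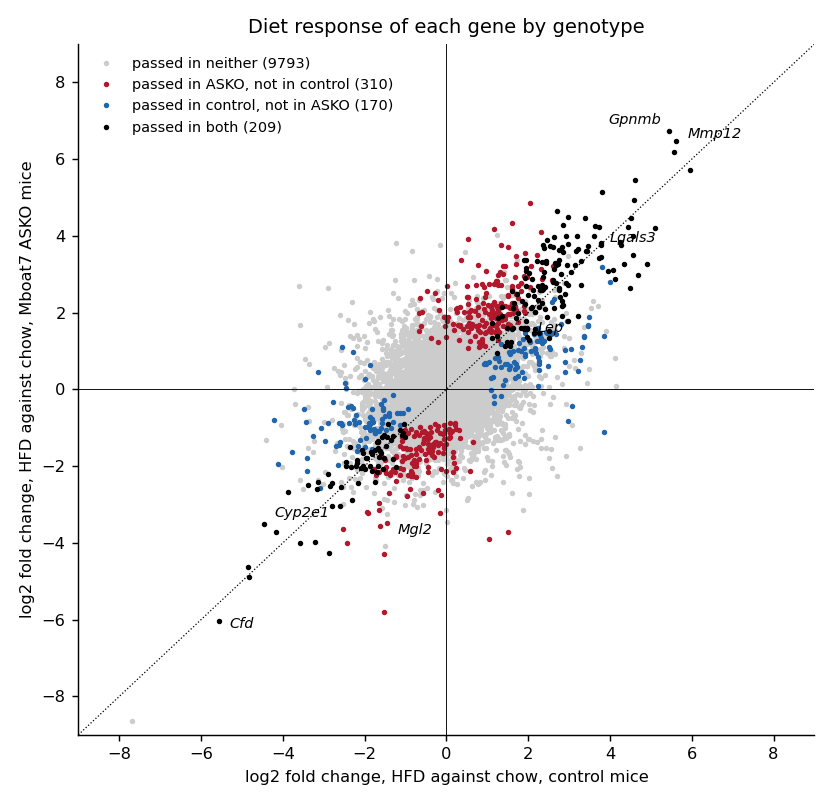
Log2 fold change (HFD against chow) of each of 10482 genes in control mice (horizontal) and Mboat7 ASKO mice (vertical), coloured by where the gene passed, with the line of equal response dotted. Of the genes that passed in Mboat7 ASKO mice, 483 of 519 have the same sign on both axes, and 209 genes passed in both genotypes.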

How the data were processed

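Total RNA from gWAT of 1 mouse per library was sequenced with a directional mRNA kit. After trimming by TrimGalore and alignment by STAR to mm10 with a GENCODE annotation, the authors used Cufflinks to make the deposited FPKM values, 1 column per mouse. The GENCODE release, the strand setting and the Cufflinks library normalization are not given in the sources used here. Genes were matched to GENCODE M21 (99.6% of 19373 rows). A spreadsheet had turned 22 names into day numbers, which were repaired, and for 20 symbols on several rows the highest row was used.

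The deposited FPKM were not rescaled, and log2(FPKM + 1) was taken. Genes reaching 1 FPKM in 4 or more of the 8 Mboat7 ASKO mice were tested with limma 3.58.1 in R 4.3.3, with all 16 mice in 1 fit of the 4 groups and an intensity trend. Benjamini-Hochberg adjustment ran over all 10482 genes, and a gene passed if its adjusted p was below 0.05 and its log2 fold change exceeded 0.5 in size. Single genes were compared by two-sided exact permutation tests. The limma fit was tested on simulated data. No read counts were used, and depth was estimated from steps of low values in 1050 coding genes, of which 50.3% to 78.3% of low values in a Mboat7 ASKO mouse lay within 0.2 of a whole step, against 40% for evenly spread values.

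The text names the 12 largest rises and 12 largest falls among genes that passed with no overlap and at least 10 FPKM in the higher group and that have no clone name, members of 32 gene lists, the 5 lowest interaction p-values, genes that the study names and the 5 highest rows. Some genes that the rule names are not reported here. Members and lists were chosen with earlier results of these data known, and 7 motif forms were searched after the values had been seen. Alternatives varied the pseudocount, filter, scaling, mice in the fit, trend, weights and replicate block, and left out each mouse. For the diet response in Mboat7 ASKO mice, only mice of that genotype were left out singly. Python 3.11.15, pandas 2.3.3, numpy 2.4.6 and matplotlib 3.10.9 were used.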

Additional observations from a re-analysis of the deposited data

Results flagged for a closer look

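In 148 groups of 4 mice, 18 held 1 mouse far from the other 3. The nominal rate of the rule, about 1 group in 20, would mark about 7. That rate does not hold for genes listed at 0 in 3 mice, where any signal in the remaining mouse is marked. No excess is therefore read from these counts. Values of a mouse that stood apart are given here with those of the other mice of its group. On chow, Gpnmb was at 1.54 FPKM in 1 mouse, Atp6v0d2 at 3.17 FPKM, Ubd at 12.71 FPKM, Itgax at 0.74 FPKM and Rgs18 at 2.35 FPKM, while each was listed at 0 in the other 3 mice. On HFD, Kcne2 was at 1.61 FPKM and Irak1bp1 at 7.73 FPKM in 1 mouse and at 0 in the others. Trem2 was at 88.25 FPKM in 1 HFD mouse and from 52.62 to 56.59 FPKM in the others, and Cd300c2 at 27.89 FPKM against 15.12 to 17.09 FPKM. Golgb1 had a mouse apart in both groups, at 18.61 FPKM on HFD (0 to 1.15 FPKM in the others) and at 155.68 FPKM on chow (72.89 to 76.12 FPKM).

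Gm23134, a row among the highest of the table that shares exons with Nnat, was at 48445.5 FPKM in 1 chow mouse and at 15131.9 to 19732.9 FPKM in the others. The share of the FPKM sum held by the 10 highest rows was 54.2% in 1 HFD mouse and 38.7% to 39.2% in the others. The mean log2(FPKM + 1) of branched-chain amino acid genes was 3.83 in 1 chow mouse and 4.2 to 4.27 in the others, that of lipid-associated macrophage genes 3.52 against 4.14 to 4.18, and that of interferon-induced genes 1.73 against 1.96 to 1.99. On HFD, the mean of T, B and NK cell genes was 0.67 in 1 mouse and 1.34 to 1.37 in the others, and that of phosphatidylinositol and lysophospholipid remodelling 1.96 against 2.13 to 2.16.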

How the results depend on the processing

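The count of genes that passed for diet in Mboat7 ASKO mice, 519, was 456 with a pseudocount of 0.1, 415 with no filter, 464 with a filter of 5 FPKM, 451 with the filter over all 16 mice, 496 with quantile normalization, 358 when the control mice were left out of the fit, 455 with no intensity trend and 569 with array weights. The 203 genes lower on HFD were 116 with upper-quartile scaling, 130 with the 10 highest rows left out and the rest rescaled, and 124 when the control mice were left out. Leaving out each Mboat7 ASKO mouse in turn gave 320 to 446 genes, 207 to 287 higher and 113 to 163 lower. The fewest in each case were without HFD mouse 0, and the interaction count was 0 to 1. The cause was not tested. Of 97 named genes that passed, 74 kept the call without any single Mboat7 ASKO mouse and 68 kept it in every other setting. Under any setting, 0 turned direction.

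Direction turned for genes that had not passed. Mboat7 ran from -0.44 to 0.32 without single mice. Lpcat3 was at 0.18 with upper-quartile scaling and 0.17 with rescaling, and from -0.39 to 0.27 without single mice. AY036118 was at -0.25 and Gm37401 at 0.51 with quantile normalization, and without single mice AY036118 ran from -0.17 to 0.46 and Gm5148 from -0.05 to 0.25.

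With a pseudocount of 0.1 the median log2 fold change was 2.56 for macrophage markers, 3.48 for lipid-associated macrophage genes, 3.24 for neutrophil, mast cell and eosinophil genes and -1.64 for mesothelial genes. With a filter of 5 FPKM it was 2.24 for macrophage markers and 0.96 for collagens. With no filter it was -0.01 for resident macrophage markers, 0.26 for chemokines, 0.93 for neutrophil, mast cell and eosinophil genes, 0.02 for clock genes and 0.38 for acyl remodelling. With the filter over all 16 mice it was -0.01, -0.04 and 0.43 for resident macrophage, clock and acyl remodelling genes, the last at 0.51 with quantile normalization. Acute phase genes had 0.31 under both upper-quartile scaling and rescaling, and xenobiotic enzymes -0.84 and -0.85.

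With the replicate number as a block, 453 genes passed (276 higher, 177 lower), 368 in controls and 0 for the interaction. The sample titles do not say what mice of the same number share. Deviations of same-numbered mice correlated between -0.218 and 0.182 (median 0.014, against -0.003 for different numbers). Whether these mice share a batch was not tested. Among the calls that the block ended were those of Cxcl14, Echdc2, H2-Ab1, Pnpla2, Sult1a1 and Tpsb2. Shallow libraries limit all values of a few FPKM, since 1 fragment on 1 kb was worth 2.47 to 4.36 FPKM, so that a gene listed at 0 may be expressed.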
